A study of Homo sapiens with 13 samples.

Results

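The loci of BTG1, BTG2, TXNIP and KLF13 were examined for peaks of LEF1 and TCF7L2 in Nalm6, a human line established from an acute leukaemia of B-cell precursors. Members were chosen by position alone, as all deposited peaks that overlapped a gene's span or the 25 kb on either side of it. The windows on hg19 were chr12:92509000-92565000 for BTG1, chr1:203250000-203304000 for BTG2, chr1:145413000-145468000 for TXNIP and chr15:31594000-31753000 for KLF13. They held 1053 of the 3429979 deposited peaks, with 252 in the BTG1 window, 154 in the BTG2 window, 196 in the TXNIP window and 451 in the longer KLF13 window.

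In CUT&RUN an antibody tethers a nuclease where its target sits on chromatin, and the fragments cut free are sequenced. All cells were unmodified Nalm6 grown in medium with charcoal-stripped serum, which is low in steroids, and were either controls or exposed for 24 h to 5 µM prednisolone, a synthetic glucocorticoid. The controls carry no treatment in one label and a vehicle in the protocol. Each of the 4 groups (LEF1 control, LEF1 prednisolone, TCF7L2 control, TCF7L2 prednisolone) had 3 libraries from separate experiments, with an additional IgG sample that is not used here.

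The 4 genes encode brakes on growth that glucocorticoids are known to induce in lymphoid cells. BTG1 and BTG2 belong to the BTG/TOB family of antiproliferative proteins, which bind the CCR4-NOT deadenylase and speed the removal of poly(A) tails from messenger RNA; BTG1 is also deleted or mutated in some B-cell malignancies. TXNIP is an alpha-arrestin that binds thioredoxin and limits glucose uptake, and KLF13 is a zinc-finger transcription factor of the Krüppel-like family. LEF1 and TCF7L2 are TCF/LEF proteins, the DNA-binding partners of beta-catenin in canonical Wnt signalling. Transcripts were not measured in these libraries, so the values below describe peaks near the genes and not their expression.

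The promoters of TXNIP, BTG2 and BTG1 are shown because the windows differed at the gene start: LEF1 peaks in all 6 libraries crossed the start of TXNIP, top TCF7L2 peaks (defined below) of 3 libraries lay before, across or after that of BTG2 within about 1 kb, and a single library had a top peak across the BTG1 start. Each sequence is the 250 bases before the start from RefSeq on GRCh38.p14, 5′ to 3′ on the gene's own strand. Capitals mark the glucocorticoid receptor palindrome (GNACA and its inverse with 3 bases between them) and, chosen after the sequences were seen, CCAAT on either strand and TATAAA.
TXNIP, chr1:145996580-145996829, minus strand: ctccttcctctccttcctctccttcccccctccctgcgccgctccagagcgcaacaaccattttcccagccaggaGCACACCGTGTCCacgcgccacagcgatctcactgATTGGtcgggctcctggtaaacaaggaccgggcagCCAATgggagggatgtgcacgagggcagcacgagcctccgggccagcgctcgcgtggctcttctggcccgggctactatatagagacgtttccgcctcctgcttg
BTG2, chr1:203305269-203305518, plus strand: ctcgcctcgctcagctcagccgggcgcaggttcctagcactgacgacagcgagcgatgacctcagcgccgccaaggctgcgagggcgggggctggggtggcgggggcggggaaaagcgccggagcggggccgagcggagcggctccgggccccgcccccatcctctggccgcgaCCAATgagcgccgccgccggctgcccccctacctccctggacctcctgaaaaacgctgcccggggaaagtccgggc
BTG1, chr12:92145847-92146096, minus strand: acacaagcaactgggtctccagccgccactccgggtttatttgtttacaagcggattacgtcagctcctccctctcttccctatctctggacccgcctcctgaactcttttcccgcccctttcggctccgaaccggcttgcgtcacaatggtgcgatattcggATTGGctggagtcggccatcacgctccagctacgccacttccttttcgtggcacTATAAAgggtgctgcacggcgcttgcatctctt

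The TXNIP promoter held the receptor palindrome GCACACCGTGTCC, 175 to 163 bases before the start. Of 35116 promoters of 300 bases in the RefSeq table (250 before the start and 50 after it), 0.390% held this motif on either strand. Among the 5 tabulated promoters of the 4 genes, of which TXNIP has 2, the palindrome stood only in the first TXNIP promoter. None of the 5 held a TCF/LEF core, spelled CTTTG and then any pair of A or T and searched on both strands, which 13.75% of all promoters did, or the single receptor element AGAACA, which 14.79% did. CCAAT, found in 34.61% of all promoters, stood once in BTG1 and BTG2 and at 2 places in the first TXNIP promoter and in KLF13; TATAAA, found in 11.53%, stood in BTG1 alone, 33 to 28 bases before the start. A match is a string of letters and not a shown site, and the absence of a match concerns these letters in these windows only. The peaks are on hg19 and the promoters on GRCh38.p14, so no peak was placed on a promoter base.

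The deposited lists held 128863 to 395786 peaks, and each was therefore cut to its top peaks, those ranked 20000th or better by the authors' −log10 p-value and then their fold over background. Peaks equal in both share an average rank, given here to the nearest whole number, and were kept or left out together, which left 17769 to 23399 top peaks per library. A low rank number is a strong peak. In the 4 windows there were 150 top peaks of 239480, and they merged into 49 of the 93901 regions made from all 12 lists: 11 at BTG1, 9 at BTG2, 8 at TXNIP and 21 at KLF13. The top TCF7L2 peaks were weak calls, with −log10 q-values that reached down to 0.390 to 0.996 by library, against 5.49 to 6.62 in the LEF1 lists.

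**Figure D1:**
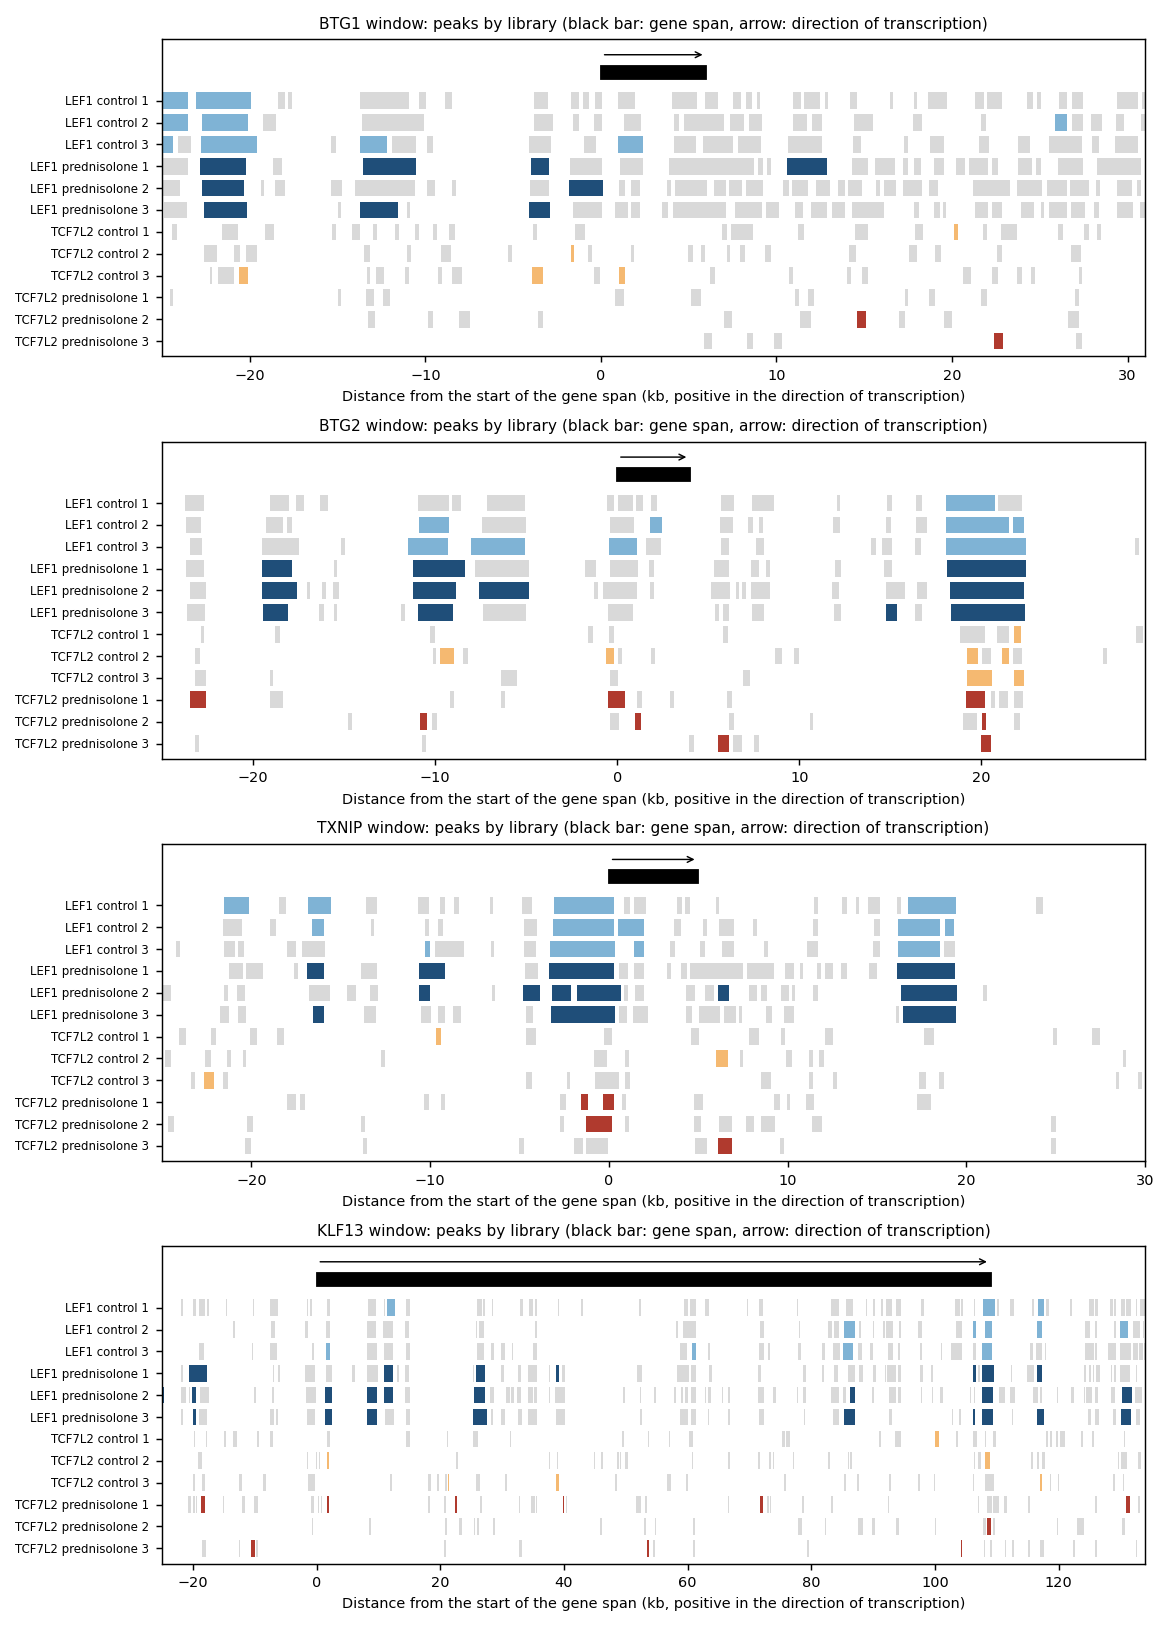
Peaks in the 4 windows by library, with distance from the start of the gene span in kb on the x axis and 1 line per library. Grey blocks are deposited peaks outside the top list and coloured blocks are top peaks (light blue LEF1 control, dark blue LEF1 prednisolone, orange TCF7L2 control, red TCF7L2 prednisolone). LEF1 top peaks line up between libraries upstream of BTG1, downstream of BTG2 and TXNIP, at the TXNIP start and at the KLF13 end, while most TCF7L2 top peaks do not.

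LEF1 top peaks were present in all 4 windows in every library. In the TXNIP window the LEF1 libraries had 4, 5 and 4 top peaks in control cells and 4, 6 and 3 after prednisolone (replicates 1, 2 and 3), a mean of 4.33 ± 0.577 and 4.33 ± 1.53 (SD, n = 3). Tiles of the same 55 kb were cut from the genome and kept where any list held a deposited peak, whether or not they held a gene. Their median was 0, and 0.746% and 0.761% of them held as many in control and prednisolone cells. In the BTG1 window LEF1 had 2, 3 and 4 top peaks in control cells and 4, 2 and 3 after prednisolone. In the BTG2 window it had 1, 4 and 4, and 3, 4 and 4. At each of these 3 genes the treatment groups overlapped. The share of tiles that held as many LEF1 top peaks was 2.54% and 2.74% for BTG1 and 2.43% and 1.32% for BTG2.

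KLF13 was the locus whose LEF1 count separated the treatments. Control libraries had 3, 5 and 5 LEF1 top peaks in the window (4.33 ± 1.15, SD, n = 3) and prednisolone libraries had 8, 9 and 10 (9 ± 1, SD, n = 3). Every prednisolone library lay above every control library, a difference of 4.67 peaks (exact permutation test, two-sided, p = 0.1, the smallest that 3 libraries against 3 can give; Benjamini-Hochberg adjusted p = 1 over the window and 18122 tiles). Of the tiles of 159 kb, 2.75% had higher counts in all 3 prednisolone libraries with no overlap. Most tiles were far sparser than this window, with a median of 0.333 LEF1 top peaks in either treatment. A tile without top peaks cannot separate the treatments, and the share among tiles as dense as this window was not computed. The share of tiles holding as many LEF1 top peaks as the KLF13 window was 6.43% in control cells and 0.624% after prednisolone. Of LEF1 peaks at a q-value of 0.01 or better, that is 2 or more as −log10, the window held 19, 15 and 17 in control cells and 27, 30 and 23 after prednisolone, again without overlap, although these lists differ in length. The share of tiles without overlap at this threshold was not computed, so these counts have no background beside them.

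**Figure D2:**
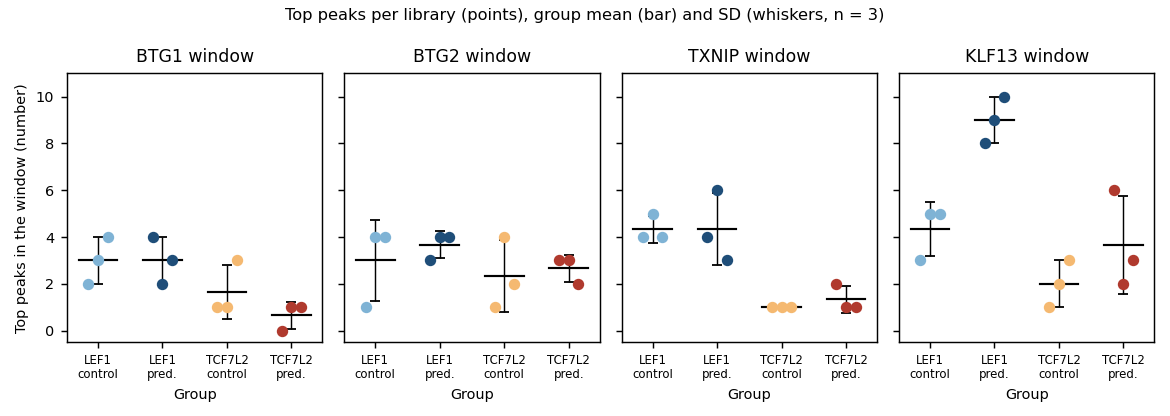
Top peaks per library (y axis, number) in each window for the 4 groups on the x axis, with points for libraries, horizontal bars for group means and whiskers for SD (n = 3). In the KLF13 window LEF1 lies at 3 to 5 in control cells and 8 to 10 after prednisolone, and the other treatment pairs overlap.

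The LEF1 libraries fell into sets by the width of their narrowest peak, 164 to 165 bp in control 1 and prednisolone 2 and 3, and 187 to 197 bp in control 2 and 3 and prednisolone 1. What separates the sets is not given in the sources used here. The KLF13 window had 3 LEF1 top peaks in the control library and a mean of 9.5 in the prednisolone libraries of the first set, and a mean of 5 and a count of 8 in the other. Because the treatments did not overlap in this window, the direction within each set could not differ. For BTG2 the LEF1 difference was 3 in the first set and −1 in the other, so its sign was not shared. Libraries of TCF7L2 also split, with narrowest peaks of 158 to 167 bp in control 2 and 3 and prednisolone 1. They were 193 to 201 bp in control 1 and prednisolone 2 and 3. In these sets the TCF7L2 difference in top peaks was −2 and 0 at BTG1 and 0 and 1.5 at BTG2. At TXNIP it was 1 and 0, and at KLF13 3.5 and 1.5.

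TCF7L2 top peaks were counted in the same way. The BTG1 window held 1, 1 and 3 in control cells and 0, 1 and 1 after prednisolone. The TXNIP window held 1, 1 and 1, and 2, 1 and 1. The BTG2 window held 1, 4 and 2, and 3, 3 and 2, and the KLF13 window 1, 2 and 3, and 6, 2 and 3. The share of tiles holding as many TCF7L2 top peaks in control and prednisolone cells was 3.19% and 1.29% for BTG2, close to the LEF1 shares there. It was 7.09% and 27.1% for BTG1, 15.5% and 7.98% for TXNIP, and 20.8% and 4.71% for KLF13. The treatment groups overlapped at every gene, with exact permutation p-values of 0.5 to 1. Set against LEF1 with antibody labels exchanged within each treatment (exact permutation test, 400 relabellings, smallest p = 0.005), TCF7L2 had a lower mean number of top peaks in all 4 windows. The difference was −3.17 at TXNIP (exact permutation test, p = 0.005), −3.83 at KLF13 (p = 0.01 by the same exact test), −1.83 at BTG1 (p = 0.025, exact) and −0.83 at BTG2 (p = 0.34, exact). Adjusted over tiles of the same width, the p-values were 0.213 at TXNIP, 0.157 at KLF13, 0.403 at BTG1 and 1 at BTG2, so none passed 0.05. The TCF7L2 top lists reached down to far weaker calls than the LEF1 lists, as given above. A difference between the factors and one in the quality of their lists cannot be told apart here. The BTG1 p was 0.05 without LEF1 control 3. Whether the treatment difference itself differed between the antibodies was tested by an interaction, which gave p = 0.355 at KLF13 and 0.58 to 1 at the other genes (exact permutation of the treatment labels within each antibody).

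The deposited TCF7L2 lists gave a pattern at BTG1 that the top peaks did not. The window held 24, 20 and 20 deposited TCF7L2 peaks in control cells and 12, 10 and 5 after prednisolone. Every prednisolone library lay below every control library, a difference of −12.33 (exact permutation test, p = 0.1). Of the tiles of 56 kb, 7.34% had lower TCF7L2 counts in all 3 prednisolone libraries with no overlap. The full lists differ in length, from 144091 to 395786 peaks for TCF7L2, and the part of list length in this difference was not tested. None of these TCF7L2 peaks at BTG1 reached a −log10 q-value of 2. Deposited LEF1 peaks were dense in the same window: there were 32, 22 and 22 in control cells and 23, 33 and 29 after prednisolone, and they covered 38.1% to 53.5% of its bases.

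To follow single sites, the rank of each library's best peak was compared in each region on the log2 scale, with 20001 given where a library had no top peak. The shift is the difference of group means with the sign turned, so that a positive shift means stronger peaks after prednisolone. For LEF1, 4 of 35 regions (11.43%) were stronger in all 3 prednisolone libraries than in any control library, against 7.84% of all 36771 regions tested. Another 2 of 35 (5.71%) were weaker in the same sense, against 7.69%. These shares are near the background. Among regions with a LEF1 top peak in at least 3 libraries, the counts were 4 and 2 of 20, against 14.66% and 14.37% of all such regions. For TCF7L2, 0 of 31 regions were stronger and 0 weaker with no overlap, against 1.04% and 2.34%. No LEF1 or TCF7L2 region of the genome had an adjusted p under 0.05 or an unadjusted p under 0.05, since the exact test cannot go below 0.1. The median LEF1 shift was 0.16 over the 35 regions and −0.01 over all regions; for TCF7L2 it was 0.15 and 0.05.

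**Figure D3:**
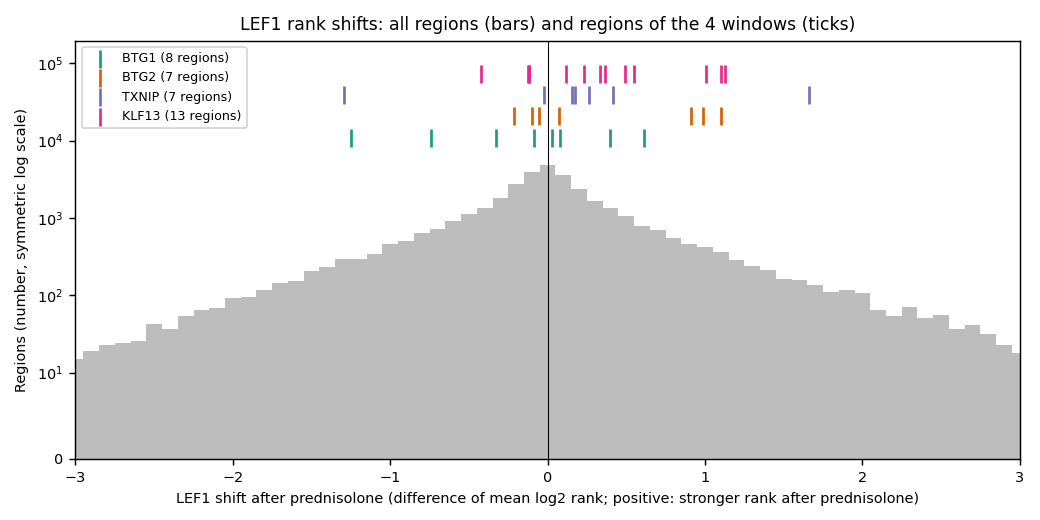
LEF1 rank shifts after prednisolone on the x axis (difference of mean log2 rank, positive for stronger peaks after prednisolone) for all regions as grey bars (number of regions, symmetric log scale) and for the regions of the 4 windows as coloured ticks. The ticks spread to both sides of 0, from −1.30 and −1.25 at distal TXNIP and BTG1 regions to 1.66 at the TXNIP start.

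The region across the TXNIP start (chr1:145434671-145439985, from 3 kb before to 2 kb after it) had the largest positive LEF1 shift of the 35. Control libraries ranked 9108, 10386 and 14642 there, and prednisolone libraries 3778, 4313 and 2682. All 3 prednisolone libraries were stronger than all 3 controls, with a shift of 1.66 (exact permutation test, p = 0.1, Benjamini-Hochberg adjusted p = 0.644 over all LEF1 regions). The authors' fold over background was 5.09, 5.47 and 4.09 in control lists and 9.97, 9.59 and 10.9 in prednisolone lists, and the −log10 q-value was 8.49 to 11.3 in control lists and 18.8 to 24.3 in prednisolone lists. Prednisolone summits lay at −0.43, −0.24 and −0.26 kb from the start of the span, which is given to the nearest kb (negative values lie before it). Control summits were more scattered, at 0.14 and 0.25 kb and, in control 2, at −2.96 kb. Within the sets by narrowest peak the shift was 1.42 and 1.71, its sign being fixed by the lack of overlap. The receptor palindrome printed above stands in the first tabulated TXNIP promoter only. Whether it lies under this LEF1 peak was not determined, and a link to the shift was not tested.

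TCF7L2 at the TXNIP start was weaker and less regular. Control libraries ranked 23055, 44185 and 61931, all outside the top list, and prednisolone libraries 14235, 3264 and 25458. The highest prednisolone rank number exceeded the lowest control one, so the groups overlapped, and the shift was 1.04 (exact permutation test, p = 0.4). Without prednisolone 2 the shift was 0.25, and without prednisolone 3 it was 1.55. The best TCF7L2 peaks of prednisolone 1 and 2, the libraries with a top peak there, had summits at −1.28 and −1.18 kb. Prednisolone 1 had 2 top peaks in the window, both within this region, and the position of the other is not given here.

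The strongest LEF1 region of the 4 windows also lay at TXNIP, 11 to 14 kb beyond the end of the gene (chr1:145454112-145457449). LEF1 ranked 333, 384 and 1540 in control cells and 807, 1686 and 2144 after prednisolone, with folds of 7.14 to 13.5 and summits of all 6 libraries within 78 bp. The groups overlapped, because control 3 ranked behind prednisolone 1, and the shift was −1.30 (exact permutation test, p = 0.2). The shift was −2.51 in the set with the narrowest peaks and −0.07 in the other, and −2.00 without control 3. TCF7L2 had no top peak there in any library. POLR3GL, which encodes a subunit of RNA polymerase III, is the next protein-coding gene on that side in the RefSeq order, and whether the region lies within it was not determined. So at TXNIP the LEF1 peak at the start and the distal LEF1 peak had shifts of opposite sign.

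At BTG1 the leading region lay 20 to 23 kb upstream (chr12:92559603-92563083). LEF1 ranked 2006, 1618 and 3165 in control cells and 5238, 4956 and 5283 after prednisolone. All 3 prednisolone libraries were weaker than all 3 controls, with a shift of −1.25 (exact permutation test, p = 0.1). The authors' fold was 14.4, 15.7 and 11.7 in control lists and 9.53, 10.7 and 10.2 in prednisolone lists, and the 6 summits fell within 260 bp. Within the sets by narrowest peak the shift was −1.35 and −1.21, its sign again being fixed by the lack of overlap. TCF7L2 had a top peak there in control 3 alone, at rank 12870. The other TCF7L2 control lists held weaker peaks at ranks 87126 and 23112, and no prednisolone list held any.

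The adjoining BTG1 region, 23 to 27 kb upstream (chr12:92563495-92566856), straddled the border of the window. LEF1 ranked 4398, 16104 and 8242 in control cells and 31516, 12246 and 11166 after prednisolone, with overlap and a shift of −0.74 (exact permutation test, p = 0.3). Without control 1 the shift was −0.28, without prednisolone 1 it was −0.48, and without control 2 it was −1.22. The best peaks of prednisolone 2 and 3 began just outside the window, that of prednisolone 3 at 0.235 kb from its edge. The border therefore counts the control peaks of this region as members and leaves out those 2 peaks. The start of BTG1 itself carried a LEF1 top peak in prednisolone 2 alone, at rank 18921, with its summit at 0.02 kb. The top TCF7L2 peak of the same region, in control 2 at rank 15421, had its summit at −1.59 kb and did not reach the start.

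BTG2 held the single region of the 4 windows with a top peak in all 12 libraries, 14 to 18 kb beyond its end (chr1:203293048-203297455). Such regions were 0.720% of all regions. LEF1 ranked 8764, 9053 and 5199 in control cells and 5274, 4714 and 1690 after prednisolone. The groups overlapped only through control 3 and prednisolone 1, 5199 against 5274, and the shift was 1.10 (exact permutation test, p = 0.2). It was 0.58 without prednisolone 3, and 1.64 and 0.38 within the sets by narrowest peak. TCF7L2 ranked 4808, 7299 and 7865 in control cells and 2517, 8008 and 8122 after prednisolone, with a shift of 0.25 (p = 1, exact) that prednisolone 1 alone made positive; without it the shift was −0.31. Summits of each library's best peak, for both factors, lay either 19.5 to 20.1 kb or 21.8 to 22.0 kb after the start of the gene. LEF1 peaks there were broad, with a median width of 4064 bp, against 550 bp for TCF7L2.

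Of the 4 BTG2 regions upstream, those with a LEF1 top peak in all 3 prednisolone libraries are described here. That choice rests on the same ranks as the shift and favours positive LEF1 shifts. The region 5 to 8 kb upstream had a shift of −0.21. The region about 23 kb upstream had no LEF1 top peak, so its LEF1 shift of 0 was fixed by the rank given to libraries without one. LEF1 peaks there ranked 283483, 26173 and 64948 in control cells and 21081, 20012 and 51719 after prednisolone. At 18 to 19 kb upstream (chr1:203255512-203257432) no control library had a top peak, with ranks of 48740, 43146 and 27877, while prednisolone libraries ranked 15885, 17594 and 4305. The groups did not overlap, the shift was 0.91, and the 3 top summits fell within 41 bp. Without prednisolone 3 the shift was 0.26, and within the sets by narrowest peak it was 1.201 and 0.3325. At 8 to 12 kb upstream (chr1:203263497-203266664) LEF1 ranked 23992, 11942 and 19710 in control cells and 5061, 9725 and 12273 after prednisolone. Here the groups overlapped through control 2 and prednisolone 3 (shift 0.99, exact permutation test, p = 0.2), and the shift was 0.62 without prednisolone 1. CHIT1, which encodes a chitinase, is the next protein-coding gene on this side in the RefSeq order.

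The BTG2 start (chr1:203274366-203276283) differed from that of TXNIP. TCF7L2 ranked 21011, 11314 and 63467 in control cells, and 6964 and 4506 in prednisolone 1 and 2, with no peak in prednisolone 3. LEF1 had a top peak there in control 3 alone, at rank 16278. The best top TCF7L2 peaks had summits at −0.39 kb in control 2, −0.36 kb in prednisolone 1 and 1.12 kb in prednisolone 2. Of these peaks, that of prednisolone 1 alone spanned the start as given to the nearest kb. The TCF7L2 shift was 0.95, with overlap between the groups (exact permutation test, p = 0.4), and the shift between antibodies was 0.70 in favour of TCF7L2 (p = 0.2, exact). This region was singled out after its values were seen.

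**Figure D4:**
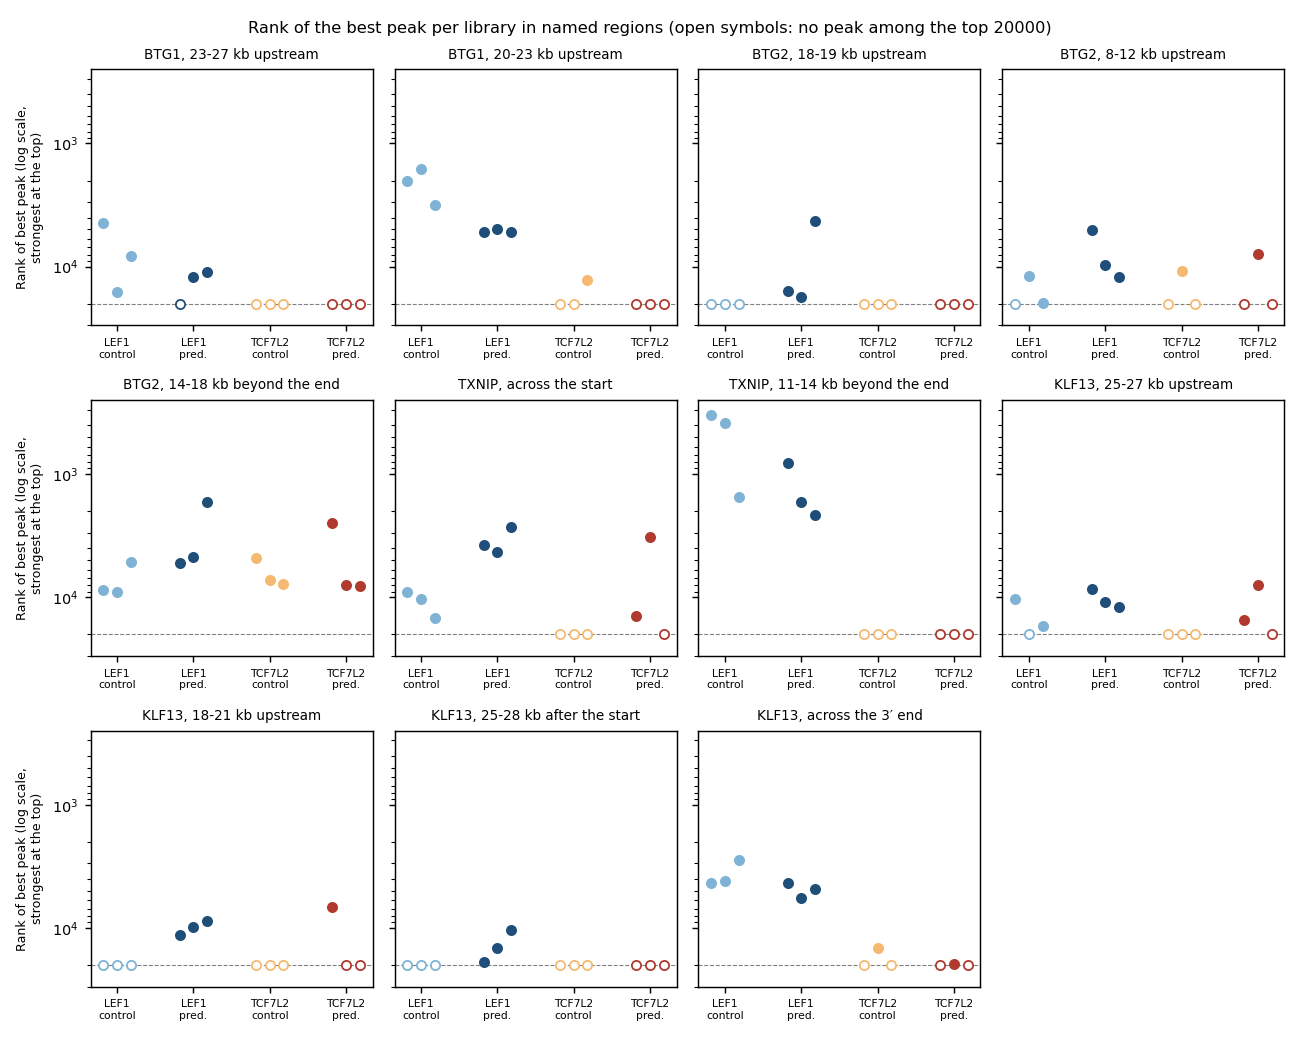
Rank of the best peak per library (y axis, log scale, strongest at the top) in the 11 regions with a top peak in all 3 libraries of at least 1 group, for the 4 groups on the x axis. Open symbols on the dashed line mark libraries without a top peak. LEF1 prednisolone points lie above LEF1 control points at the TXNIP start (3778, 4313 and 2682 against 9108, 10386 and 14642) and below them 20 to 23 kb upstream of BTG1.

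At KLF13 both regions with a stronger LEF1 rank in all 3 prednisolone libraries lay upstream and in the first part of the gene. LEF1 top peaks after prednisolone were also present at its end and beyond. Both regions belong to the stronger ones counted above, whose share was near the 7.84% of all LEF1 regions. Neither had a top peak in a control library, so their lack of overlap followed from the top peaks in all 3 prednisolone libraries. The region 18 to 21 kb upstream (chr15:31598385-31601216) ranked 11423, 9884 and 8747 in prednisolone libraries. In control libraries its LEF1 peaks ranked 80403 and 219416, and control 2 had none, a shift of 1.01 with no overlap. The 3 prednisolone summits fell within 25 bp. TCF7L2 had a top peak in that region in prednisolone 1 alone, at rank 6741.

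The region 25 to 28 kb after the KLF13 start (chr15:31644345-31646547) had LEF1 ranks of 173817, 40545 and 57548 in control cells and 19092, 14619 and 10345 after prednisolone. These did not overlap, with a shift of 0.49, and the shift was 0.70 and 0.07 within the sets by narrowest peak and 0.26 without prednisolone 3. Nearer the start, regions 1 to 3 kb (chr15:31620285-31621524) and 8 to 10 kb (chr15:31627145-31628758) into the gene had LEF1 top peaks in prednisolone 2 and 3 but not in prednisolone 1. The first ranked 35333, 30621 and 19710 in control cells and 38878, 5426 and 6989 after prednisolone. The next ranked 21487, 50377 and 37006, and 21535, 4460 and 9049. Both overlapped between treatments, with shifts of 1.13 and 1.10 (exact permutation test, p = 0.4), and both were singled out after their values were seen. The higher LEF1 count of the KLF13 window was thus spread over several regions of middle rank, some of them present in only part of the prednisolone libraries.

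The leading KLF13 region lay across the end of the gene (chr15:31726577-31728703). LEF1 ranked 4301, 4203 and 2791 in control cells and 4342, 5749 and 4883 after prednisolone. The groups did not overlap, but control 1 and prednisolone 1 were only 41 ranks apart, and the shift was −0.42 (exact permutation test, p = 0.1). It was −0.22 without control 3. Summits of all 6 libraries fell within 256 bp. At the upstream edge of the window, a region 25 to 27 kb before the start (chr15:31592491-31594296) ranked 10343, 33701 and 17133 in control cells and 8573, 10858 and 12089 after prednisolone, with overlap (shift 0.55, exact permutation test, p = 0.3). The shift was 0.36 without control 2 and 0.83 without control 1, and its sign differed between the sets by narrowest peak (−0.15 and 1.11). The peak of control 1 ended 0.025 kb outside the window and is not a member, whereas those of the prednisolone libraries crossed the edge; with it the LEF1 regions with a top peak at KLF13 numbered 4, 5 and 5 in control cells and 8, 9 and 10 after prednisolone.

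Both factors met in 17 of the 49 regions, where at least 1 LEF1 and at least 1 TCF7L2 library had a top peak, while 18 held LEF1 alone and 14 TCF7L2 alone. Over all regions 19.91% were shared, 19.25% LEF1 alone and 60.84% TCF7L2 alone. Regions found in 1 library only were 21 of 49 (42.86%), against 62.78% over all. In the rank comparison of the antibodies, LEF1 was stronger than TCF7L2 at an unadjusted p under 0.05 in 5 of 49 regions, against 7.49% of all 93901 regions, and TCF7L2 was stronger in 0 of 49, against 2.08%. Both shares are near those over all regions, and here too factor and list quality cannot be told apart. The 5 regions with LEF1 stronger were the TXNIP start and distal regions, both BTG1 upstream regions and the KLF13 end. The shift, TCF7L2 minus LEF1, was −4.46 at the distal TXNIP region, −2.47 at the BTG1 region 20 to 23 kb upstream and −2.14 at the KLF13 end, each with the smallest p the exact permutation test allows, 0.005 (adjusted p = 0.0982). It was −1.16 at the TXNIP start (p = 0.015, exact) and −0.89 at the other BTG1 region (p = 0.02, exact). No region of the genome passed an adjusted p of 0.05 in this comparison (exact permutation test with Benjamini-Hochberg adjustment), while 8979 had an unadjusted p under 0.05.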

How the data were processed

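Peaks were called per library with MACS2 on hg19, per the submitters' processing notes; version, aligner, control library and filters are not given in the sources used here. For each peak the authors deposited a fold ratio over background with −log10 values of p and q. These served to rank or filter peaks within a list and to describe single peaks. Folds and q-values printed side by side for different lists were not tested. They are not separate evidence, because the ranks were made from p and fold. The authors' integer score column was deposited too and not used. The deposited lists ended near a −log10 p-value of 1.30. Read depth is unknown, and the 3 libraries per group limit the precision.

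Top peaks of the 12 lists were merged into regions at 1 bp of overlap. Group differences were tested by two-sided exact permutation tests over libraries (20 relabellings for treatment, 400 for antibody). Benjamini-Hochberg adjustment was over all regions tested, or over all genome tiles of the window's width that held a deposited peak in any list. "Called" for treatment meant no overlap of the groups. The comparison was tested on simulated ranks first. Software was Python 3.11.15 with numpy 2.4.6, pandas 2.3.3 and scipy 1.17.1.

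The regions described are those with a top peak in all 3 libraries of at least 1 group, up to 8 per gene, and others are marked. Members and lists were chosen with earlier results of these data known. Strands on hg19 come from general knowledge of the genes; TXNIP is taken as plus on hg19 and stands on minus in GRCh38.p14, where neighbours and promoters were read. No hg19 annotation was used here, so exons and introns were not assigned, and related genes (BTG/TOB, CCR4-NOT, alpha-arrestins, thioredoxin, KLF) were not located or counted. Alternatives were other list lengths, all deposited peaks, −log10 q-values of at least 2, equal peaks in order of position, 100 bp of overlap, 10 kb extensions, a replicate block and leaving out each library.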

Additional observations from a re-analysis of the deposited data

How the results depend on the processing

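Without each library in turn the LEF1 difference at KLF13 was 4 to 5.17, where the lack of overlap fixed its sign. The difference stayed positive under the other list lengths, thresholds and extensions tried. Directions that turned were those of TCF7L2 or BTG2 differences, among them the TCF7L2 difference of 1.67 at KLF13. At BTG1 the TCF7L2 difference was 0.33 with 10000 top peaks. At BTG2 the LEF1 difference was −1.67 for −log10 q-values of at least 2 and −0.33 with 10 kb extensions; the TCF7L2 difference was −1 with 40000 top peaks, −0.67 with all deposited peaks and −0.33 at the stricter q-value; the antibody difference was 0.17 with 10000 top peaks, −5.67 with all deposited peaks (exact permutation p = 0.01) and −7.00 at the stricter q-value (p = 0.005, exact). The TCF7L2 difference was −0.67 with 40000 top peaks and −2.33 with all deposited peaks at TXNIP, and −3.33 with all deposited peaks at KLF13. Antibody differences lost p under 0.05 with 10 kb extensions at BTG1 (−0.17) and TXNIP (−1) and with 10000 top peaks at KLF13 (−1). The cause was not tested.

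Without each library in turn, the antibody difference ranged from −2.17 to −1.58 at BTG1 and, at BTG2, both treatment differences ranged from −0.33 (without control 1) to 1.17. The 4 stronger LEF1 regions numbered 5 to 8, with 8 without prednisolone 1 and 7 without prednisolone 2, and 1 with 10000 top peaks; TCF7L2 gave 0 to 3 stronger, with 3 without prednisolone 3, and 0 to 1 weaker, with 1 without prednisolone 1. Fewer libraries make a lack of overlap easier to reach. Single regions that turned were BTG2 14 to 18 kb beyond the end (TCF7L2 −0.62 at the stricter q-value, −0.31 without prednisolone 1, up to 0.54 without another; antibody 0.0297 without LEF1 prednisolone 3, the other end of its range being −0.51), BTG2 8 to 12 kb upstream (TCF7L2 −0.29 without prednisolone 2, up to 0.45), the KLF13 end (TCF7L2 0.0086 without control 2, down to −0.22) and the KLF13 regions 25 to 27 and 18 to 21 kb upstream (antibody 0.018 and 0.060 with 10000 top peaks).

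Same-numbered libraries did not deviate together (correlations of −0.149 to −0.00854 over regions). With the replicate block the LEF1 regions called stronger numbered 7, because 3 pairs reach a common direction more easily, and the KLF13 LEF1 difference of 4.67 had an exact p of 0.25, the smallest that 3 pairs allow; no side of the 0.05 threshold changed at any window.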
